A study of Mus musculus with 192 samples.

Results

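The Notch pathway was followed here through 9 of the 54752 genes in the table. They were the receptors Notch1, Notch2 and Notch3, the ligands Dll4 and Jag1, the target genes Hes1 and Heyl, and the regulators Nrarp and Dtx1. The 9 genes were taken by their names, and Dtx1 was put forward for its rise in the thymus of flown WT mice, so that the set was chosen by values of these data; for the other 8 no record shows which values led to them. Values of the 9 genes between FL_WT and GC_WT thymus, and in the thymus contrasts that share those mice, are therefore given with no test. The test in Nrf2-KO thymus compared mice outside the contrast that Dtx1 was chosen by, but its spread was estimated over all 4 groups. For the other 8 genes it cannot be said that the KO values played no part in the choice, so those p-values carry that limit.

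RNA was sequenced from 9 tissues of 24 male C57BL/6 mice, which gave 192 samples. FL_WT and FL_KO mice spent 31 days on the International Space Station and were dissected after their return, and GC_WT and GC_KO mice lived in the same type of cage on the ground. KO stands for Nrf2-KO, a germline deletion in Nfe2l2 (allele Nfe2l2 tm1Ymk), and all KO mice had been screened for a shunt within the liver. All mice were housed singly and labelled as 12 weeks old, and groups held 6 mice, or 3 in mandibular bone (MdB) and kidney (Kid); the other tissues were temporal bone (TpB), spleen (Spl), liver (Liv), white (eWAT) and brown (iBAT) fat, thymus (Thy) and cerebrum (Cbr). The ground mice were studied later and at another site, so flight, transport, site and date cannot be told apart. Flight mouse FL04, an FL_KO mouse with a hemorrhage of the intestine, was left out, which left 5 FL_KO mice, 2 of them in MdB, and the full 3 in Kid.

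Notch signalling passes between neighbouring cells. A ligand on one cell binds a receptor on the next, the receptor is cut, and its inner part moves to the nucleus, where it joins the DNA-binding protein Rbpj and turns on targets such as the Hes and Hey repressors. In the thymus, Dll4 on epithelial cells acts through Notch1 on incoming progenitors to start T cell development, and Notch targets are then switched off as thymocytes reach the CD4 and CD8 double positive stage; in the spleen, Notch2 is needed for marginal zone B cells.

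Gene positions are given on GRCm38 and refer to whole genes. Dtx1 lies at chr5:120680202-120711927 on the minus strand, Notch1 at chr2:26457903-26516663 (minus), Notch2 at chr3:98013527-98150361 (plus) and Notch3 at chr17:32120820-32166852 (minus). Dll4 lies at chr2:119325784-119335962 (plus), Jag1 at chr2:137081456-137116644 (minus), Hes1 at chr16:30064384-30067796 (plus), Heyl at chr4:123233556-123249875 (plus) and Nrarp at chr2:25180758-25183339 (plus). On the opposite strand Dll4 is overlapped by Gm14207, listed at up to 4.59 TPM in thymus libraries, a level similar to that of Dll4 itself, so that Dll4 reads may be shared if strand was not used in counting. The genes on the opposite strand of Notch1, Notch3 and Nrarp reached at most 1.04, 0.09 and 0.18 TPM in thymus. On the same strand, Gm42819 and Gm42820 overlap Notch2 and reached at most 1.5 and 1.39 TPM there, so Notch2 reads may be shared with them.

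Promoter sequence was read because many of the 9 genes moved together in thymus and Rbpj acts at promoters of its targets. Of the 9 genes, 7 had a promoter in the RefSeq table for GRCm38.p6 (not Hes1 and Heyl). The letters TGGGAA, the core of the sequence that Rbpj binds, were searched on both strands (TTCCCA on the other) in the 250 bases before the start, where 7094 of 32851 promoters (21.6%) held them and 0 of these 7 genes did. Of 43 other pathway genes with a promoter, 13 held them in at least 1 promoter. With only 7 genes, the 0 is not read as a trait of the set. For Dtx1, Notch1 and Jag1 the RefSeq start lay 258, 12841 and 124 bases inside the longest gene model, so those windows are not upstream of the whole gene. The last 100 bases before the start are shown for Notch3, which rose in both genotypes, and for Nrarp, which did not pass the test, and for comparison 60 bases of the pathway genes Lfng and Hey2, in which capitals mark the searched letters, first at bases -135 and -108 of Lfng and at base -207 of Hey2. Windows cover chr17:32166891-32166990 (Notch3, minus strand), chr2:25180658-25180757 (Nrarp, plus), chr5:140607191-140607250 (Lfng, plus) and chr10:30842944-30843003 (Hey2, minus).
Notch3: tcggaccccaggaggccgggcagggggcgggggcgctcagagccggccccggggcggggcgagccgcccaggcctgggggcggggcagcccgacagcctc
Nrarp: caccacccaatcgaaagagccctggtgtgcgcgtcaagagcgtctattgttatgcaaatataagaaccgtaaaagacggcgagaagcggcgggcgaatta
Lfng: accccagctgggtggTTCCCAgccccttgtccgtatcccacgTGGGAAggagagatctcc
Hey2: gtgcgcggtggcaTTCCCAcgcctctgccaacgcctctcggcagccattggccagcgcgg
A match is a description of these letters and not a binding site.

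Levels are given as TPM, an abundance scaled to the library and corrected for transcript length, so that genes can be compared. Fold changes come from the counts, scaled so that most genes center on no change. In thymus the TPM of the median gene was itself 0.18 (WT) and 0.16 (KO) higher in flight on the log2 scale, and the corresponding shift was 0.31 and 0.43 in iBAT and 0.19 and 0.10 in TpB, and 0.15 in Liv of KO mice, so fold changes are relative to that shift. On the TPM scale limma called 3923 (WT) and 3429 (KO) of 10158 thymus genes higher in flight, so such rises were common. The share of all genes whose ranges did not overlap was not counted, so non-overlap only describes each gene. Thymus libraries held from 8007523 to 10564704 counts in all, and the other libraries from 12954949 to 16308175 counts. Nfe2l2, the deleted gene, did not overlap between WT and KO mice in 9 of 9 tissues. In thymus it was 20.9 to 32.5 TPM in WT and 7.55 to 13.6 TPM in KO mice. The ranges lay closer in Spl, at 73.1 to 86.7 TPM in WT and 60.4 to 67.8 TPM in KO mice. Libraries left out in separate fits for lying apart were GC04 in thymus, FL03 in eWAT and FL06, FL08 and FL11 in iBAT. Results that rest on them are given without them. Other libraries lay apart too. In Cbr the GC_KO mouse GC04 had a root mean square log2 distance of 0.41 from its group, against a median of 0.29 over Cbr libraries. No fit left GC04 out in Cbr. The Cbr libraries held the cerebral gene Neurod6 (40.7 to 69.6 TPM), with means for the cerebellar genes Pcp2 and Gabra6 in GC_WT of 0.018 and 0.010 TPM. Values of the other cerebellar markers used for TpB below, and of Pcp2 and Gabra6 in the other groups, are not given here. A lack of cerebellar transcripts in Cbr is therefore not shown. The libraries are called cerebrum after their sample labels and Neurod6, although the series design names the cerebellum.

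In the thymus of KO mice, flight raised 7 of the 9 Notch pathway genes and lowered none (edgeR's quasi-likelihood test, Benjamini-Hochberg adjusted over 16307 genes). Of all genes tested there 38.2% passed, and 19.3% passed with higher values in flight, so calls were common in this tissue. The median log2 fold change of the 9 genes was 0.50, against -0.0081 over all genes tested. Dtx1 moved the most, followed by Heyl, Jag1 and Hes1, and the 3 receptors moved less. These are bulk samples, in which fewer cells of a type and less RNA per cell cannot be told apart.

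Notch1 encodes the receptor that commits progenitors to the T lineage and was the most abundant of the 9 genes in thymus. In GC_WT it ran from 30.9 to 36.6 TPM with a median of 32.2, and in FL_WT from 41.0 to 50.5 with a median of 45.1. In GC_KO it ran from 24.2 to 39.3 with a median of 32.6, and FL_KO mice had 39.9, 40.7, 42.8, 44.5 and 50.04 TPM. Every flown mouse was above every ground mouse of its genotype, although the highest GC_KO mouse came close to the lowest FL_KO mouse. The log2 fold change was 0.22 in KO (SE 0.051, adjusted p = 0.00134) and 0.25 in WT mice (SE 0.048). On the TPM scale, where the median gene was higher too, it was 0.47 in both genotypes.

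Notch2, a receptor better known from B cells and myeloid cells, had 17.2, 17.3, 17.6, 17.7 and 19.2 TPM in FL_KO against 10.6 to 14.4 in GC_KO (median 12.4), with no overlap. In WT mice the groups met at their edges, with 13.2 to 15.9 TPM in GC_WT (median 14.7) and 15.8 to 20.5 in FL_WT (median 17.6). Its log2 fold change was 0.28 in KO mice (SE 0.043, adjusted p = 1.86e-05; 0.51 on the TPM scale), and it was 0.06 in WT mice (SE 0.040); it ranged from 0.04 to 0.28 there over the alternatives, the highest on the TPM scale.

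Notch3, a receptor of immature thymocytes and of mural cells of vessels, had 12.0, 12.9, 13.1, 13.3 and 17.1 TPM in FL_KO and 6.89 to 8.99 in GC_KO (median 8.09). In WT mice it was 8.08 to 9.28 TPM on the ground (median 8.59) and 12.0 to 15.4 in flight (median 13.1). Flown and ground mice were apart in both genotypes. The log2 fold change was 0.50 in KO (SE 0.060, adjusted p = 1.57e-06) and 0.40 in WT mice (SE 0.057). Summed over Notch1 to Notch4, the receptors came to 56.9 ± 2.86 TPM in GC_WT (SD, n = 6) and 78.5 ± 7.07 in FL_WT (n = 6), and to 52.6 ± 7.58 in GC_KO (n = 6) and 76.2 ± 6.81 in FL_KO (n = 5). The mix of receptors was similar in the 4 groups, with mean shares for Notch1 of 57.2% to 59.7%, for Notch2 of 22.9% to 25.7%, for Notch3 of 15.3% to 17.9% and for Notch4 of 1.46% to 1.73%.

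Of the ligands, Jag1, which is made by stromal and epithelial cells, separated by flight in both genotypes. FL_KO mice had 5.03, 5.14, 5.24, 5.45 and 5.48 TPM, a narrow range, against 1.54 to 2.95 in GC_KO (median 2.31). GC_WT mice had 2.79 to 3.72 TPM (median 3.52) and FL_WT mice 4.50 to 8.01 (median 5.52). The lowest flown mouse of either genotype was above the highest ground mouse of both. Its log2 fold change was 0.93 in KO (SE 0.10, adjusted p = 7.40e-07) and 0.53 in WT mice (SE 0.094).

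Dll4, the ligand that drives T cell commitment, was low and scattered. FL_KO mice had 2.54, 3.04, 3.68, 3.91 and 4.72 TPM and GC_KO mice 1.43 to 3.28 (median 2.25), and FL_WT mice had 3.01 to 4.99 (median 3.98) against 1.79 to 3.38 in GC_WT (median 2.49). Groups overlapped in both genotypes. The log2 fold change of 0.42 in KO mice (SE 0.17) missed the threshold (adjusted p = 0.0522), and the adjusted p ranged from 0.0126 to 0.171 over the alternatives; in WT mice it was 0.47 (SE 0.16).

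Hes1, a repressor and the classic Notch target, had 7.25, 7.26, 7.66, 9.61 and 11.3 TPM in FL_KO against 2.69 to 5.67 in GC_KO (median 4.66). In WT mice the ranges overlapped, with 4.33 to 8.55 TPM in GC_WT (median 5.53) and 6.64 to 15.5 in FL_WT (median 9.09). The KO groups were apart, and the log2 fold change was 0.70 there (SE 0.19, adjusted p = 0.00578) and 0.43 in WT mice (SE 0.18).

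Heyl, a target known from vascular smooth muscle and pericytes, was the lowest of the 9 genes, with only 15 to 65 counts per library. FL_KO mice had 1.32, 1.38, 1.41, 1.46 and 1.54 TPM and GC_KO mice 0.28 to 0.89 (median 0.50), while GC_WT had 0.50 to 1.03 (median 0.84) and FL_WT 0.82 to 1.74 (median 1.24). The KO groups did not overlap and the WT groups did. The log2 fold change was 1.15 in KO (SE 0.20, adjusted p = 1.09e-04) and 0.37 in WT mice (SE 0.19).

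Nrarp, a target whose protein dampens Notch signalling, overlapped between flight and ground in both genotypes. FL_KO mice had 2.76, 2.98, 3.10, 3.61 and 4.12 TPM and GC_KO mice 2.05 to 3.86 (median 2.83). GC_WT and FL_WT had medians of 3.01 and 3.81 TPM. Its log2 fold change was -0.0047 in KO mice (SE 0.14, adjusted p = 0.984), with values on both sides of 0 (-0.11 to 0.08) over the alternatives, and 0.09 in WT mice (SE 0.13).

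Dtx1 encodes Deltex1, a ubiquitin ligase that binds Notch receptors and is itself a Notch target. FL_KO mice had 6.64, 8.75, 9.96, 11.9 and 12.1 TPM and GC_KO mice 2.38 to 3.78 (median 3.09). FL_WT mice had 6.38 to 14.3 TPM (median 8.90) and GC_WT mice 2.71 to 5.48 (median 3.82). All 11 flown mice were above all 12 ground mice, at 216 to 500 against 93 to 217 counts, ranges that overlap between 216 and 217 counts. The log2 fold change was 1.37 in KO mice (SE 0.18, adjusted p = 3.91e-06), a 2.58-fold rise that 116 of 16307 genes exceeded. In WT mice, the contrast by which it was chosen, it was 1.06 (SE 0.17), and 125 genes exceeded it.

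**Figure D1:**
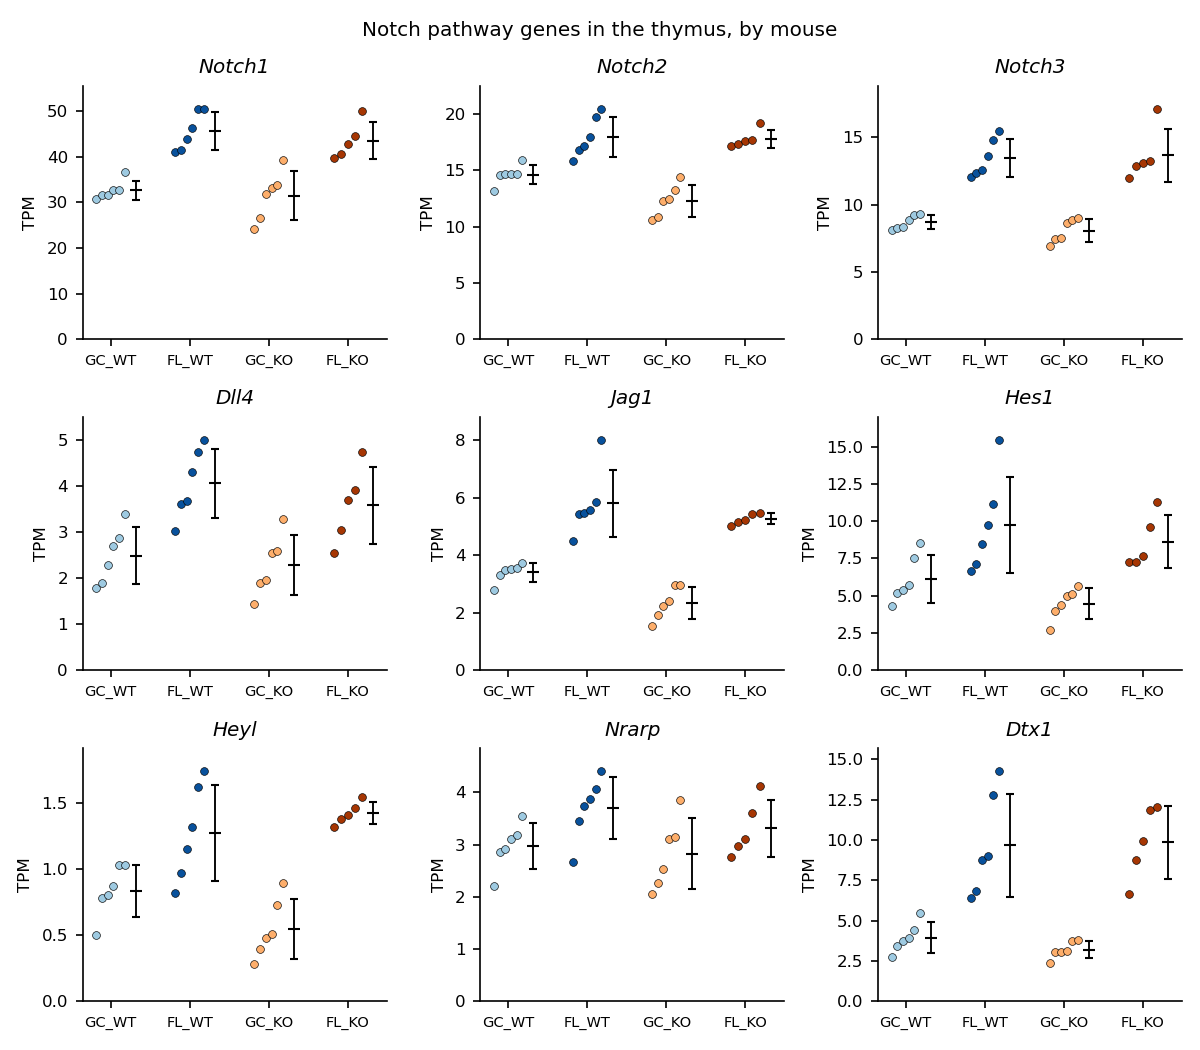
Level in TPM (y axis, from 0) of the 9 genes in each thymus library of the 4 groups (x axis); each point is 1 mouse in order of its value, and the bar beside the points is the mean ± SD (n = 6, or 5 in FL_KO). Notch1, Notch3, Jag1 and Dtx1 did not overlap between flight and ground in either genotype, and Nrarp overlapped in both. The median gene was also higher in flight on this scale, and the share of all genes without overlap was not counted.

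Set side by side, Dtx1 had the highest fold change of the 9 genes in both genotypes, followed by Heyl and Jag1 in KO and by Jag1 and Dll4 in WT mice. The 9 genes had a median of 0.40 on the log2 scale in WT mice, against 0.021 over all genes, where 22.8% of genes passed the test. The flight response in KO minus that in WT mice, which was not tested because those WT mice were used to choose Dtx1, was 0.78 for Heyl (SE 0.28), 0.40 for Jag1 (SE 0.14), 0.31 for Dtx1 (SE 0.25), 0.27 for Hes1 (SE 0.26) and 0.22 for Notch2 (SE 0.059). For Notch1, Notch3, Dll4 and Nrarp it lay between -0.09 and 0.10. On the ground, KO minus WT was -0.53 for Heyl, -0.45 for Jag1, -0.35 for Hes1, -0.20 for Dtx1 and -0.15 for Notch2, and for the other 4 genes between -0.04 and 0.04. In flight it lay between -0.09 (Dll4) and 0.25 (Heyl) for all 9. The 5 genes with the larger KO response were also the 5 that were lower in GC_KO than in GC_WT by 0.15 or more, a pair of measures that share the GC_KO mice.

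**Figure D2:**
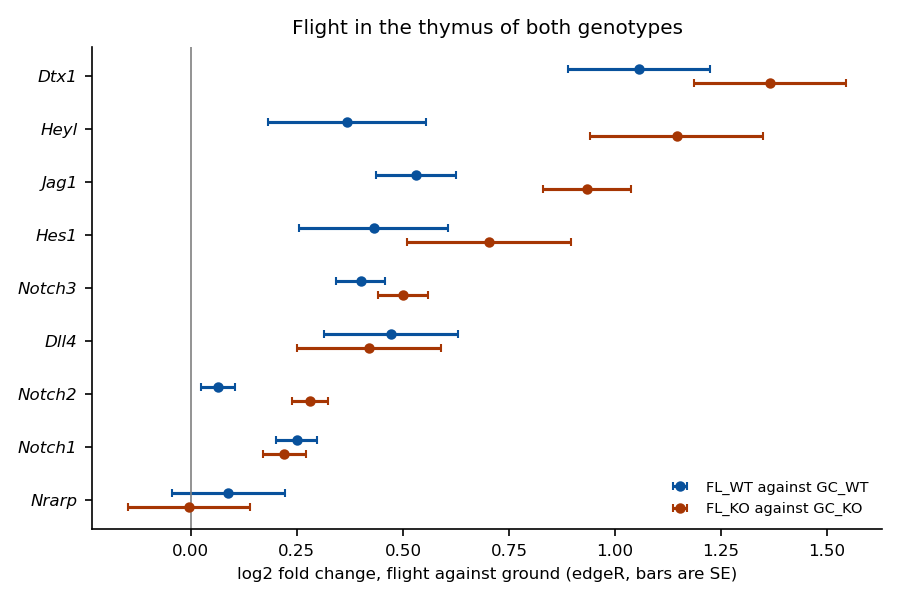
Log2 fold change of flight against ground in thymus (x axis) for each of the 9 genes (y axis) in WT and KO mice, from edgeR on counts, with SE as bars. Dtx1 is highest in both genotypes (1.06 and 1.37), Nrarp lies near 0 in both, and Heyl differs most between them (0.37 and 1.15).

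The other genes of the pathway went both ways in thymus. Of 53 listed, 48 were tested (Dlk1, Dll3, Hes5, Hes7 and Neurl1a were too low). Over all genes tested in thymus, flight changed 38.2% in KO and 22.8% in WT mice, and these shares hold for the flight counts of lists and markers in thymus below. Flight raised 14 and lowered 11 of these 48 genes in KO mice and raised 12 and lowered 7 in WT mice, and their median log2 fold changes were 0.070 and 0.080. On the TPM scale none of those raised changed sign, whereas 6 of the 11 lowered in KO mice (Ncstn, Dtx2, Aph1a, Snw1, Itch and Maml1) and 4 of the 7 lowered in WT mice (Ncstn, Dtx2, Snw1 and Adam17) did.

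Among receptors and ligands, Jag2 and Notch4 rose in both genotypes, 2 of 4 tested. Of 8 target genes, 4 rose and 2 fell in both genotypes. Il2ra, the CD25 chain of the IL-2 receptor and a Notch target of early thymocytes, went from 6.10 to 9.33 TPM in GC_KO to 15.6 to 21.7 in FL_KO, and from 5.26 to 6.86 in GC_WT to 10.4 to 21.0 in FL_WT. No flown mouse overlapped a ground mouse, and the log2 fold changes were 0.96 (adjusted p = 6.35e-07) and 0.97 (adjusted p = 2.38e-06). Hey1, a repressor of the Hes family, rose by 0.61 in WT mice (adjusted p = 0.00130), and Myc, a growth regulator under Notch control in T cells, by 0.39 (adjusted p = 0.00479). Tcf7 and Bcl11b, T lineage factors that Notch turns on but that later thymocytes keep, fell instead. Tcf7 changed by -0.45 in KO (adjusted p = 1.57e-06) and -0.29 in WT mice (adjusted p = 2.52e-04), and Bcl11b by -0.35 (adjusted p = 0.00288) and -0.28 (adjusted p = 0.0171). On the TPM scale Bcl11b was not called in KO (adjusted p = 0.531) or WT mice (0.738), nor was Tcf7 in WT mice (0.510), by limma.

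Of 16 genes for modification and turnover of ligands and receptors, 5 rose and 3 fell in KO and 3 rose and 2 fell in WT mice. Lfng, a glycosyltransferase that tunes Notch1 for Dll4, had 14.3 to 16.8 TPM in FL_KO against 6.01 to 11.5 in GC_KO, a log2 fold change of 0.70 (adjusted p = 5.90e-05). Poglut1, which adds glucose to the receptor, rose by 0.35 in KO mice (adjusted p = 7.67e-04). Neurl1b, a ubiquitin ligase for ligands, changed by -0.59 in KO (adjusted p = 2.71e-05) and -0.57 in WT mice (adjusted p = 6.14e-05). The ubiquitin ligases Itch in KO (-0.19, adjusted p = 0.00237) and Dtx2 in WT mice (-0.15, adjusted p = 0.0251), were lower on the count scale and changed sign on the TPM scale (0.06 and 0.07). Of 10 genes of receptor cleavage, 1 rose and 3 fell in KO and none rose and 2 fell in WT mice.

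In the nuclear complex of 10 genes, the coactivators Maml2 in KO (0.44, adjusted p = 1.42e-04) and Maml3 in WT mice (0.40, adjusted p = 0.00126) rose; in all 2 rose and 3 fell in KO and 3 rose and 1 fell in WT mice. This group also held the pathway genes that differed by genotype. On the ground 3 of 48 were higher in KO than in WT mice and none lower, where 3.81% of all genes passed. Spen, a corepressor bound by Rbpj, was higher by 0.44 (adjusted p = 1.61e-04) and Crebbp was another of these genes. In flight Spen was again higher in KO mice (0.34, adjusted p = 0.00777), where 2.64% of all genes passed, but it was not called with FL04 included (adjusted p = 0.0503).

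Marker RNAs of cell types that carry Notch receptors and ligands were followed in the same bulk libraries. Of 9 markers of double positive thymocytes, such as Cd8a and Rag1, 8 fell in both genotypes, and their summed TPM was 2929 to 3536 in GC_WT, 2430 to 3047 in FL_WT, 2189 to 3365 in GC_KO and 2019 to 2272 in FL_KO. Of 9 early thymocyte markers, which include Il2ra, 4 rose in WT and 6 in KO mice, with sums of 39.4 to 50.02, 53.7 to 74.9, 32.6 to 50.1 and 59.8 to 66.9 TPM in the same order of groups. The marker Kit rose by 0.30 in WT (adjusted p = 0.0164) and 0.48 in KO mice (adjusted p = 3.58e-04), while Ptcra did not pass in either (0.18, adjusted p = 0.0980, and 0.08, adjusted p = 0.481).

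Of 11 thymic epithelial markers 5 rose in WT and 7 in KO mice, with sums of 1012 to 1285, 1420 to 2026, 734 to 1182 and 1162 to 1488 TPM. Endothelial markers rose in 4 and 7 of 9 (52.6 to 59.1, 59.9 to 72.9, 40.6 to 61.5 and 55.3 to 73.8 TPM), and mural markers in 4 of 8 tested in both genotypes (24.5 to 32.7, 30.96 to 49.9, 19.3 to 31.5 and 35.1 to 44.8 TPM). Rises also passed for 2 and 3 of 6 fibroblast markers (54.6 to 84.0, 73.9 to 126, 28.1 to 62.2 and 68.0 to 93.3 TPM), 1 and 4 of 5 myeloid markers (95.9 to 141, 127 to 228, 75.9 to 103 and 140 to 183 TPM) and 2 and 5 of 6 mature T cell markers, of which 1 fell in WT mice (96.7 to 112, 115 to 148, 76.5 to 101 and 113 to 140 TPM). Of 9 proliferation markers 4 and 5 fell (723 to 961, 622 to 937, 592 to 950 and 677 to 747 TPM). Of 5 adipocyte markers 1 rose in WT and none in KO mice (44.1 to 73.5, 80.4 to 120, 28.2 to 67.3 and 48.0 to 117 TPM). The part of these shifts in the Notch results was not tested.

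Dtx1 is abundant in spleen, an organ rich in B cells, and 8 B cell markers were followed beside it. In thymus 2 of 8 rose in WT and 6 in KO mice, and they summed to 18.9 to 25.3 TPM in GC_WT, 25.6 to 33.9 in FL_WT, 14.4 to 25.2 in GC_KO and 25.9 to 36.7 in FL_KO. Per TPM of these markers, thymus held 0.122 to 0.270 TPM of Dtx1 in ground mice (median 0.174) and 0.242 to 0.472 in flown mice (median 0.323). In Spl the same ratio was 0.041 to 0.052 on the ground and 0.047 to 0.061 in flight, below every thymus library. Thymus libraries were made from rRNA-depleted RNA and those of Spl from poly(A) RNA, so the ratios of both tissues are set side by side with that difference.

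Across tissues of GC_WT mice, Dtx1 was highest in Spl (157.6 ± 23.2 TPM, SD, n = 6), then Cbr (41.9 ± 1.83), TpB (14.2 ± 12.6) and Thy (3.94 ± 0.946). It was 1.31 TPM in MdB, 0.50 in eWAT, 0.327 in Liv, 0.107 in Kid and 0.065 in iBAT. Ranges of neighbours in this order overlapped for TpB and Thy, eWAT and Liv, and Kid and iBAT. Spl and Cbr stood above every other tissue in mean and apart from their neighbours.

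**Figure D3:**
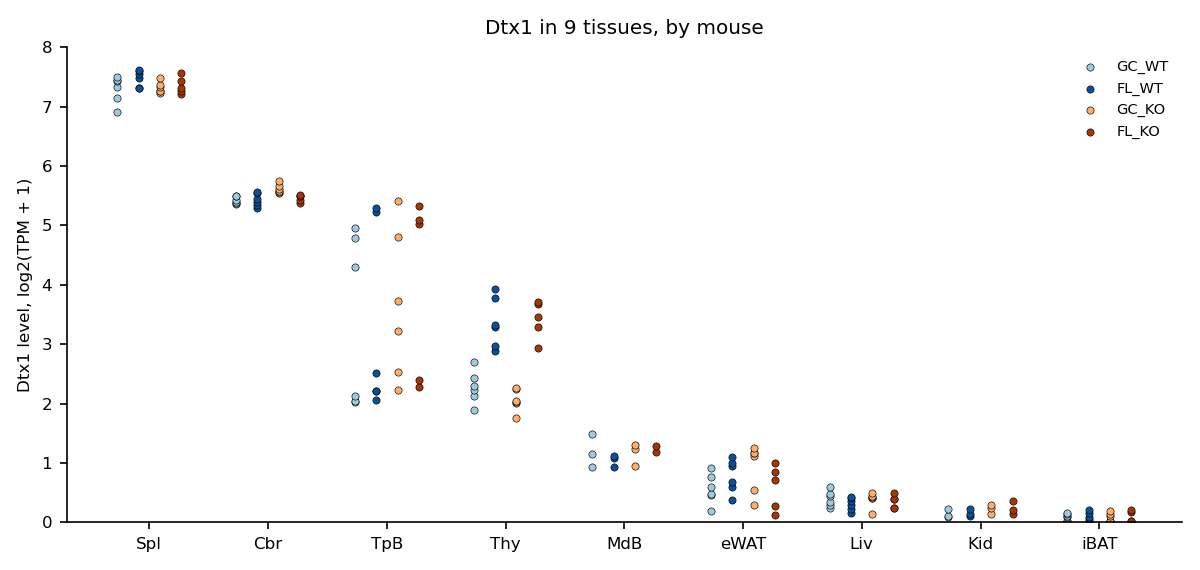
Dtx1 level as log2(TPM + 1) (y axis) in each library of 9 tissues (x axis, in the order of the GC_WT means), with 1 point per mouse and colors for the 4 groups. Flown and ground mice are apart in Thy; in TpB the libraries fall into a high and a low cluster that both hold all 4 groups.

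The spread in TpB went with cerebellar transcripts. In 12 of 23 TpB libraries 4 cerebellar markers summed to 62.5 to 1845 TPM, and Dtx1 was 8.37 to 41.7 TPM there. In the other 11 the sums were 1.83 to 10.9 and Dtx1 was 3.06 to 4.79 TPM. The 12 libraries came from 3 GC_WT, 2 FL_WT, 4 GC_KO and 3 FL_KO mice, and over all 23 libraries, which share these 2 clusters, Pearson's r was 0.985 and Spearman's rho 0.876, as a description. No flight value of Dtx1 in TpB is read from these libraries: the log2 fold changes were -0.05 (SE 0.79) in WT and 0.37 (SE 0.83) in KO mice.

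**Figure D4:**
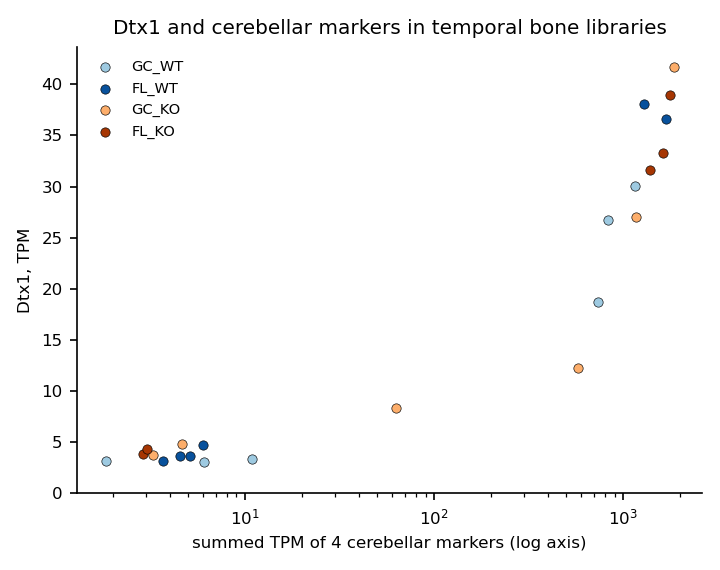
Dtx1 in TPM (y axis) against the summed TPM of 4 cerebellar markers (x axis, log scale) in 23 TpB libraries, 1 point per mouse, colored by group. The 11 libraries with low sums lie between 3.06 and 4.79 TPM of Dtx1 and the 12 with high sums between 8.37 and 41.7.

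Of the other genes, Notch2 alone shared this peak. Notch1 was highest in Thy (32.7 TPM), where its range overlapped that of Spl (28.9), and Notch2 in Spl (77.3), ahead of MdB (38.3). Notch3 (17.8), Dll4 (16.9) and Nrarp (14.6) had their highest means in eWAT, Jag1 (23.4) and Hes1 (63.8) in MdB, and Heyl in TpB (12.1). For Notch3, Dll4, Nrarp, Jag1, Hes1 and Heyl the next tissue overlapped. Dtx1 was thus ordered unlike the rest: over 36 means of tissue and group, its Pearson correlation with the other 8 genes ran from -0.18 (Dll4) to 0.54 (Notch1) on the log2 scale. The genes most alike were Trpm2 (0.984), Sidt1 (0.975), Siglech (0.967), Slc9a7 (0.959) and Map3k19 (0.956), among 17835 genes; these points share libraries, and Spl and Cbr weigh most.

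Outside thymus, Dtx1 showed no called difference by flight in the 6 tissues where it was tested. Its counts per library were low in Liv (4 to 21), eWAT (3 to 47) and MdB (30 to 60), and TpB is set aside above, so a change in these tissues could have been missed. Spl mice had 119.7 to 180.5 TPM in GC_WT, 157.8 to 196.1 in FL_WT, 149.9 to 178.1 in GC_KO and 147.4, 153.3, 157.5, 171.5 and 188.2 in FL_KO. All groups overlapped, and the log2 fold changes were 0.18 (SE 0.080, adjusted p = 0.259) and 0.09 (SE 0.084, adjusted p = 0.700). In Cbr they were 0.0037 (SE 0.059, adjusted p = 0.9999) and -0.16 (SE 0.062, adjusted p = 0.8288). The KO groups in Cbr nevertheless did not overlap on the TPM scale, at 40.4 to 44.6 TPM in flight against 45.5 to 52.9 on the ground, while the WT groups did.

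Over the 8 other tissues, 70 pairs of gene and tissue were tested, all but Dtx1 in iBAT and Kid. Flight raised 6 and lowered none in WT mice, where 4.42% of all gene and tissue pairs passed, and raised 2 and lowered 1 in KO mice, where 5.07% passed. The count in KO mice depended on the tool and the mice: DESeq2 called 5 of 72 pairs, limma 7 of 50, and edgeR 2 to 5 with a mouse left out (5 without FL11 in Kid). These 9 calls lay in the fat depots except for Hes1 in Spl.

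Nrarp, which did not pass in thymus, passed in both fat depots and both genotypes. In eWAT it went from 7.92 to 23.0 TPM in GC_WT (median 13.96) to 17.9 to 32.4 in FL_WT (median 23.8), and from 8.97 to 20.3 in GC_KO (median 11.2) to 21.7, 22.2, 22.9, 24.8 and 27.3 in FL_KO. The WT groups overlapped and the KO groups did not. The log2 fold changes were 0.67 (SE 0.21, adjusted p = 0.0367) and 0.90 (SE 0.22, adjusted p = 0.0154), in a tissue where 13.4% (WT) and 7.71% (KO) of genes passed; with the WT groups alone in the fit, the WT value was not called (adjusted p = 0.0533). In iBAT the level was lower, 0.68 to 1.56 TPM in GC_WT and 1.77 to 4.31 in FL_WT, and 0.85 to 2.27 in GC_KO and 2.74, 3.44, 3.79, 3.94 and 4.20 in FL_KO. No flown mouse overlapped a ground mouse of its genotype there, and the log2 fold changes were 0.95 (SE 0.21, adjusted p = 0.00307) and 0.72 (SE 0.21, adjusted p = 0.0128), where 19.2% and 33.5% of genes passed.

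Hes1 in eWAT was 8.57 to 14.4 TPM in GC_WT (median 10.97) and 14.01 to 22.2 in FL_WT (median 17.0), higher by 0.58 on the log2 scale (SE 0.14, adjusted p = 0.00751). In KO mice it was 12.2, 12.3, 12.3, 12.7 and 12.8 TPM in flight and 9.06 to 15.3 on the ground, with a log2 fold change of -0.04 (adjusted p = 0.913). Heyl in eWAT was 4.60 to 7.89 TPM in GC_WT and 7.32 to 17.3 in FL_WT, where FL08 alone exceeded 10.03, higher by 0.66 on the log2 scale (SE 0.22, adjusted p = 0.0468). That call was lost without FL12, an FL_KO mouse of the same fit (adjusted p = 0.0517), with FL04 included (0.0549), with no filter on low counts (0.0620) and with the WT groups alone (0.0542). In KO mice its value was -0.05 (adjusted p = 0.931). Both genes therefore passed in WT and not in KO mice, but the difference between genotypes was not called for any of the 70 pairs.

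In iBAT, Jag1 was 3.41 to 4.46 TPM in GC_WT and 5.57 to 8.25 in FL_WT, apart from each other, and flight raised it by 0.45 on the log2 scale (SE 0.11, adjusted p = 0.00616). In KO mice it was also apart on the TPM scale, 3.40 to 6.18 against 6.47, 6.68, 7.04, 7.05 and 8.20, yet the fold change relative to other genes was 0.12 (SE 0.12, adjusted p = 0.450), where the median gene had risen by 0.43. Dll4 was the gene that was lowered, by -0.61 in iBAT of KO mice (SE 0.21, adjusted p = 0.0268), although its TPM hardly moved, from 2.78 to 5.06 in GC_KO (median 3.77) to 2.05, 2.98, 3.71, 3.72 and 4.40 in FL_KO. Its fall is thus relative to the rest of the library, and it was not called without FL02 (adjusted p = 0.0540) or FL09 (0.0768). Without FL06, FL08 and FL11, whose 6 skeletal muscle markers summed to 6147, 2967 and 7676 TPM against at most 68.7 in the other libraries, the values in iBAT were 0.96 for Nrarp in WT (adjusted p = 0.0118) and 0.77 in KO (adjusted p = 0.0201), 0.50 for Jag1 (adjusted p = 0.0113) and -0.62 for Dll4 (adjusted p = 0.0383), and Heyl in KO (0.38, adjusted p = 0.0188) and Notch3 in WT mice (0.46, adjusted p = 0.0433) passed as well.

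**Figure D5:**
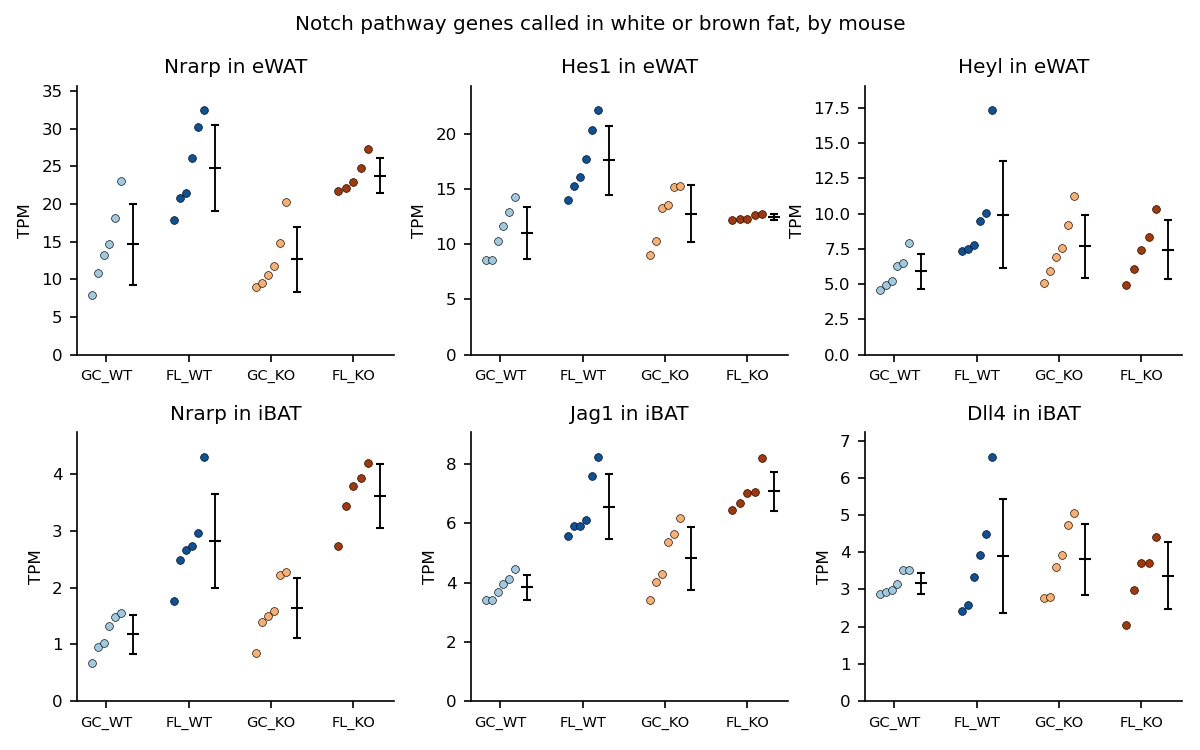
Level in TPM (y axis, from 0) of the Notch pathway genes called in eWAT (upper row) or iBAT (lower row) in the 4 groups (x axis), with 1 point per mouse and mean ± SD (n = 6, or 5 in FL_KO). Nrarp rises with flight in both depots and both genotypes, Hes1 and Heyl in eWAT of WT mice, and Dll4 in iBAT overlaps in both genotypes.

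Vessel markers were followed in the same fat libraries. Of all genes, 13.4% (WT) and 7.71% (KO) passed in eWAT, and 19.2% and 33.5% in iBAT. Endothelial markers rose in 4 (WT) and 2 (KO) of 9 in eWAT, with sums of 620 to 873 TPM in GC_WT, 897 to 1297 in FL_WT, 709 to 905 in GC_KO and 788 to 1101 in FL_KO. In iBAT 1 and 2 of 9 rose, with sums of 182 to 237, 241 to 413, 161 to 279 and 235 to 388 TPM. These iBAT counts are not read as a result about vessels. The sums are on the TPM scale, where the median iBAT gene was 0.31 (WT) and 0.43 (KO) higher in flight on the log2 scale. Mural markers had 1 of 9 lower in eWAT of both genotypes, and 2 higher and 1 lower in iBAT of KO mice. Their part in the results was not tested. FL03 stood apart in eWAT with B cell markers of 88.1 TPM against at most 22.4, and Hes1, Heyl and Nrarp were still called without it.

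In Spl, Hes1 had 44.1 to 62.0 TPM in GC_WT (median 52.9) and 57.8 to 77.3 in FL_WT (median 66.7), with 4 of 6 flown mice above every ground mouse. The log2 fold change was 0.33 (SE 0.075, adjusted p = 0.0256), in a tissue where 2.26% of genes passed, and was not called with a replicate block (adjusted p = 0.0665). In KO mice the values were 48.5 to 56.4 TPM on the ground and 44.9, 53.7, 55.5, 56.1 and 64.0 in flight. Mural markers rose in 6 of 9 in Spl of WT mice (236 to 366 TPM in GC_WT and 377 to 570 in FL_WT), and their part was not tested. Hes1 in Liv came close to the threshold in both genotypes, at 0.61 (adjusted p = 0.0924) in WT and 0.73 (adjusted p = 0.0555) in KO mice. With the replicate block, Hes1 in Liv of WT mice was called (adjusted p = 0.0469) and that of KO mice was not. In KO mice it was called by DESeq2 (adjusted p = 0.0237), by limma on TPM (0.0159) and by edgeR with FL04 included (0.0416).

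Genotype changed none of the 70 pairs past the threshold, on the ground (0 called by edgeR, 2 by DESeq2 and 0 by limma) or in flight (0 called by edgeR, 3 by DESeq2 and 0 by limma). Of all gene and tissue pairs, 1.37% and 1.19% passed. For the flight response of KO minus that of WT mice, 0 were called by edgeR, DESeq2 and limma, as 0% of all pairs were by edgeR. In Cbr on the ground all 9 genes were higher in KO than in WT mice, by 0.06 to 0.50 on the log2 scale with a median of 0.28 against 0.0031 over all genes. Dtx1 there was 45.5 to 52.9 TPM in GC_KO and 40.0 to 44.2 in GC_WT, without overlap (log2 fold change 0.21, SE 0.059, adjusted p = 0.103). In flight the median in Cbr was 0.11, again with 9 of 9 above 0, and the values of Dtx1 overlapped. The share of all genes above 0 was not counted, and the 9 values of a contrast share the same libraries. The ground values include GC04, which lay apart from its group in Cbr and was not left out. The 9 of 9 is therefore a description and not a result about the pathway.

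Among the other pathway genes of the 8 tissues, 375 pairs were tested, and flight raised 6 and lowered 6 in WT and raised 14 and lowered 7 in KO mice. Over all gene and tissue pairs 4.42% passed in WT and 5.07% in KO mice, so these counts are not read as a result about the pathway. Dll1, the ligand of Notch2 for marginal zone B cells, was 32.1 to 36.6 TPM in GC_WT and 39.6 to 48.4 in FL_WT Spl, without overlap (0.37, adjusted p = 0.00677). In iBAT it rose from 0.77 to 0.83 TPM to 1.19 to 2.13 in WT mice (0.75, adjusted p = 0.00422) and from 0.50 to 1.23 to 1.49 to 2.36 in KO mice (0.85, adjusted p = 9.87e-04). Rfng, a glycosyltransferase of the Lfng family, rose in iBAT by 0.23 and 0.35 (adjusted p = 0.00947 and 2.28e-04), and Aph1b of the receptor-cutting gamma-secretase changed by -0.61 and -0.47 (adjusted p = 0.00228 and 0.0110). The receptor Notch4 rose in eWAT of WT mice by 0.45 (adjusted p = 0.0154).

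Lfng changed by -2.47 in iBAT (adjusted p = 0.00495) and -0.72 in eWAT of KO mice (adjusted p = 0.0356) and by -0.85 in Liv of WT mice (adjusted p = 0.0464), the opposite direction to its rise in thymus. The value in eWAT was not called without FL01, FL02, FL09 or FL12 (adjusted p = 0.0816, 0.106, 0.0517 and 0.0686), nor that in Liv without FL12 (0.0521). Hey2 in iBAT of WT mice changed by -1.28 (adjusted p = 0.0352), which was not called without FL06, FL08 and FL11 (adjusted p = 0.114). By genotype, Neurl1a, a ubiquitin ligase for ligands, was 1.28 to 2.22 TPM in GC_KO and 0.49 to 0.68 in GC_WT Spl, a log2 fold change of 1.45 (adjusted p = 8.48e-07), and it was higher in FL_KO than in FL_WT by 1.31 (adjusted p = 5.32e-06). Myc in Liv was lower in GC_KO than in GC_WT by -2.32 (adjusted p = 0.00699). The remaining genes named by the same rule had absolute log2 fold changes of 0.19 to 1.42 (Snw1, Mib1, Poglut1 and Maml2 in eWAT, Maml3 and Aph1b in Liv). Several of these calls were not stable: that of Snw1 in KO mice was lost in 10 alternatives and held in 3, that of Poglut1 was lost in 6 and held in 7, and those of Maml3 and Aph1b were each lost in 4 and held in 6.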

How the data were processed

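RNA from 9 tissues was sequenced by the authors as single reads of 76 cycles on a HiSeq2500, from strand-specific libraries of poly(A) RNA or, in thymus, of rRNA-depleted RNA. STAR 2.6.1, RSEM 1.3.1 and mm10 are named in the submitters' processing notes; the strand setting of counting is not given in the sources used here. The authors deposited RSEM expected counts per gene, not normalized, and TPM values, which were used for levels; 192 columns of FPKM were not used. The members and gene lists were chosen with earlier results of these data known. Besides the 9 members and Nfe2l2, genes were named by rule: at most 4 other pathway genes per thymus flight contrast and direction and 2 per other tissue, contrast and direction with the smallest adjusted p among those called, and the 5 genes most correlated with Dtx1; list members, genes that changed sign and genes left from a small count were named after their values were seen.

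After rounding of the expected counts, each tissue was fitted in R 4.3.3 with edgeR 4.0.16 (filterByExpr by group, TMM, quasi-likelihood test on 4 groups in 1 fit, without FL04). Adjustment was by Benjamini-Hochberg across every gene that a tissue's fit tested, with calls under 0.05; p-values measure the spread between mice. Alternatives tried were limma 3.58.1 on log2(TPM + 1), restricted to genes whose group mean reached 5 TPM, DESeq2 1.42.0, RLE factors, no filter, FL04 included, 2 groups per fit, mice left out in turn and, by mouse number, a replicate block. The scripts were tested on simulated data. Flight and ground mice with one number are different animals; in Liv all 5 KO pairs deviated together (r = 0.301 to 0.496), which was so in no other tissue with 3 or more pairs. Fits without FL03 (eWAT) and without FL06, FL08 and FL11 (iBAT) were chosen after seeing the data. Promoters came from RefSeq and gene positions from GENCODE on GRCm38. Some genes of the lists are counted but not reported here by name.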

Additional observations from a re-analysis of the deposited data

Results flagged for a closer look

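Of 88 groups of 5 or 6 mice examined for a mouse far from the rest of its group, 5 held one by Dixon's criterion, and chance gives about 1 in 20. In thymus, GC_WT mouse GC08 had 36.63 TPM of Notch1 against 30.87 to 32.74 in the other 5, and FL_KO mouse FL01 had 19.2 TPM of Notch2 against 17.15 to 17.73 and 17.1 TPM of Notch3 against 11.99 to 13.25. In Liv, GC_KO mouse GC01 had 0.1 TPM of Dtx1 against 0.33 to 0.41, and in eWAT, FL_WT mouse FL08 had 17.33 TPM of Heyl against 7.32 to 10.03. Mouse FL04, outside the comparisons, had 9.38 TPM of Dtx1 in thymus, above the highest GC_KO mouse (3.78 TPM) and inside the range of the other FL_KO mice.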

How the results depend on the processing

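In KO thymus 7 of the 9 genes were called without a replicate block and 7 with the replicate block, and 7 to 8 when each FL_KO mouse was left out, where Dll4 joined without FL01 or FL02; without GC04 the same 7 were called. Mice were left out in turn only in groups of 5 or fewer, so in thymus only FL_KO mice were, and nothing is read from these fits about the WT contrast. In the other tissues, calls of the 9 in KO mice were 3, against 5 with DESeq2 and 7 with limma on TPM (2 to 5 with a mouse left out, 5 without FL11 in Kid), those by flight in WT mice were 6, against 8 with DESeq2 and 8 with limma (5 to 7 with a mouse left out), and those by genotype were 0, against 2 (ground) and 3 (flight) with DESeq2 and 0 to 0 with a mouse left out, as for the interaction. With the replicate block, Hes1 in Spl (adjusted p = 0.0665) was not called, nor was it with limma (0.0730). Other pathway genes in thymus by genotype went from 3 to 1 (ground) with limma and from 2 to 0 (flight) with limma or with FL04 included, and to 2 to 3 and 1 to 2 with a mouse left out (1 without FL01, FL02 or FL12); by flight in KO mice they were 20 to 25. In the other tissues they went from 12 in WT mice to 19 with DESeq2, 21 with limma and 7 with no filter, and from 21 in KO mice to 11 with no filter and 12 with only 2 groups in the fit (11 to 13 and 17 to 23 with a mouse left out). Itch in KO (0.058) and Dtx2 in WT thymus (0.074) changed sign with limma on TPM. The tissue of highest mean was kept for 7 of 9 genes with CPM and for 7 with medians. The causes were not tested. Heyl, at 15 to 65 counts, and Dll4, with an overlapping gene, are limited by depth and counting.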
